A study of Mus musculus with 3 samples.

Results

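Chemokines are small secreted proteins that steer leukocytes, and 42 genes of this system were followed here across the cell kinds of the mouse lung: 28 ligands, 12 signalling receptors and 2 atypical receptors. They were chosen by name, from a fixed list of genes and not by their levels, out of 31054 features in the files. The study compared lungs of 3 groups of mice by single-cell RNA sequencing, with 1 library per group. The library KO holds lung cells of conditional knockout mice that were irradiated and also given a drug. The library WT, called irradiated WT here, is from wild-type mice after irradiation, and the control library NoIR2 from wild-type mice without it. The labels name neither the deleted gene, the Cre driver nor the drug, and give no radiation dose, time, age or number of mice. Since the KO library carries both the deletion and the drug, the effects of genotype and drug cannot be told apart.

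Chemokines bind receptors with 7 membrane spans on leukocytes and other cells, and the cells move up the gradient of their ligand. CXC ligands such as Cxcl1 and Cxcl2 recruit neutrophils through Cxcr2, CC ligands such as Ccl2 recruit monocytes through Ccr2, and Cxcl12 holds leukocytes and progenitors in tissue niches through Cxcr4. Atypical receptors such as Ackr1 and Ackr3 bind chemokines without the usual G protein signal and carry or clear them.

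Each gene was measured by its UMIs (unique molecular identifiers, 1 per captured transcript) and given as CPM, its UMIs per 1000000 UMIs summed over the barcodes of a gate. Barcodes with at least 250 genes and at most 15% mitochondrial UMIs were kept, which left 9886 in KO, 5805 in irradiated WT and 13091 in NoIR2, with median depths of 4899 to 6071 UMIs. They were sorted into 7 gates by defining genes: T (Cd3d, Cd3e, Cd3g), B (Cd79a), NK (Ncr1 without Cd3 genes), Csf1r (monocytes and macrophages), endothelial (Pecam1, Cdh5), fibroblast (Col1a1, Col1a2) and epithelial (Epcam without Ptprc). A barcode could pass several gates, as 5.75% to 10.9% of the kept barcodes did, and 22.1% to 26.5% passed none. No doublets were removed, and any pair of libraries shared 18 to 32 barcode sequences. In irradiated WT 27.5% of the kept barcodes carried male transcripts, against 0.273% in KO and 0.00764% in NoIR2, so this library held cells of both sexes. Brackets give exact 95% intervals, Poisson for a level and binomial for a ratio or share, and they cover counting error only, since 1 library per group leaves no spread between animals and no test.

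All markers listed for a gate's own cells had UMIs in that gate in every library. These lists include the genes that define the gates, and a single UMI in a whole gate sufficed. The check therefore cannot show how pure a gate was, and gates held other cells to unequal degrees. In the epithelial gate 3.68% of KO, 0.847% of irradiated WT and 16.3% of NoIR2 barcodes also passed the fibroblast gate. For the endothelial gate these shares were 4.21% in KO, 5.08% in irradiated WT and 12.9% in NoIR2. For the T gate they were 17.4% in KO, 7.63% in irradiated WT and 3.57% in NoIR2. In the endothelial gate a UMI of the leukocyte gene Ptprc was found in 60.3% of KO, 73.3% of irradiated WT and 22.7% of NoIR2 barcodes, and summed T cell markers reached 1520.2 CPM in KO, 1422 CPM in irradiated WT and 273 CPM in NoIR2. Endothelial markers summed to 2277 CPM in KO, 1661 CPM in irradiated WT and 5743 CPM in NoIR2. In the Csf1r gate neutrophil markers summed to 12225 CPM in KO, 3588 CPM in irradiated WT and 4309.7 CPM in NoIR2, and type 2 alveolar markers to 1604 CPM in KO, 20608 CPM in irradiated WT and 8778 CPM in NoIR2. In irradiated WT 3 barcodes of that gate held 99.9% of the UMIs of Sftpc, a type 2 alveolar gene. Type 2 alveolar markers, which T cells should lack, summed to 354 CPM in KO, 97.4 CPM in irradiated WT and 3086 CPM in NoIR2 in the T gate. The part of these other cells and of free RNA in the results was not tested. Values for endothelial barcodes without Ptprc, and for Csf1r barcodes without UMIs of other gates, are therefore given beside those of the gates. These splits were chosen after the values were seen. For Csf1r, other gates here means the T, B, epithelial and fibroblast genes. Endothelial and NK genes were not excluded. Of the Csf1r gate, 12.1% of KO, 11.6% of irradiated WT and 23.4% of NoIR2 barcodes also passed the endothelial gate. The gates cleared of other lineages, named below, are these selections and fibroblasts without Ptprc, with the barcodes of other gates unchanged. In sums over a gate, fewer cells of a kind and less RNA per cell cannot be told apart.

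Most chemokine genes kept their source across the libraries. Among ligands with at least 30 UMIs in their highest gate in all 3 libraries, 17 of 25 were highest in the same gate throughout, and so were 9 of 10 receptors. The NK gate led for Ccl3, Ccl4, Ccl5, Xcl1 and Cxcr4, and the Csf1r gate for Ccl6, Ccl9, Cxcl1, Cxcl2, Cxcl3, Cxcl16, Pf4 and Ccr1. Fibroblasts led for Ccl11, Ccl19, Cxcl13 and Cxcl14, epithelial barcodes for Cxcl5 and Cxcl15, endothelial barcodes for Ackr3, B cells for Ccr6, Ccr7 and Cxcr5, and T cells for Ccr8, Cxcr3 and Cxcr6. The leading gate varied for Ccl2, Ccl7, Ccl8, Ccl17, Cxcl9, Cxcl10, Cxcl12, Cx3cl1 and Ccr2.

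**Figure D1:**
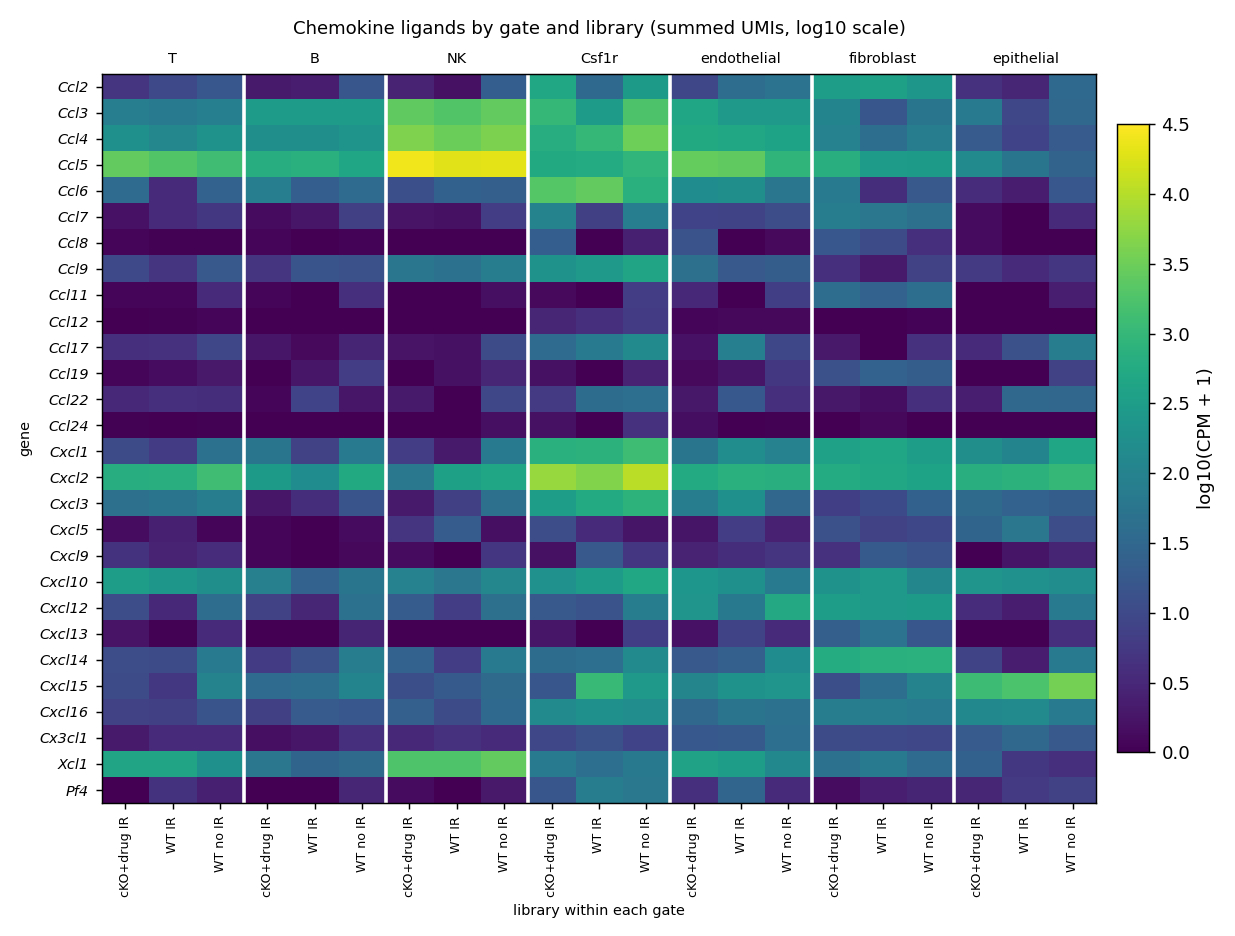
Levels of the 28 ligands, as log10(CPM + 1) of summed UMIs, by gate (blocks) and library (columns within a block, KO, irradiated WT, NoIR2). The NK gate is brightest for Ccl5 in all libraries, the Csf1r gate for Cxcl2 and Ccl6, and the epithelial gate for Cxcl15.

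A gene was called apart when one library reached at least 2 times the level of another, after 5 CPM had been added to each level. The call also required 30 UMIs in the higher library, 50 barcodes in each, and a level of at least 20% of that in the gene's highest gate. Between irradiated WT and NoIR2, 19 of 91 tested gene and gate combinations were higher and 16 were lower in irradiated WT, against 2.93% and 3.52% of all combinations of all genes. Between KO and irradiated WT, 10 were higher and 13 lower in KO out of 91, against 0.577% and 0.643% of all. Between KO and NoIR2, 16 were higher and 18 lower in KO out of 90, against 2.26% and 2.16% of all. The 3 comparisons share libraries and are not independent of each other. Most of these calls lay in the Csf1r and endothelial gates, and many rested on a few barcodes: with the 3 highest barcodes of each gene left out, 25 of the 58 calls of the first and second comparison remained. Ccl12, Ccl24 and Cxcr2 were too low to be tested anywhere.

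The genes of the neutrophil-attracting group, Cxcl1, Cxcl2 and Cxcl3, are neighbours on chromosome 5 in a cluster with Cxcl5, Pf4 and Cxcl15 that spans positions 90759360 to 90905938 (GENCODE vM21 on GRCm38). Chemokine genes often lie in such groups: with gaps of up to 100 kb, 25 of the 42 genes fell into 7 clusters. Ccl2, Ccl7, Ccl11, Ccl12 and Ccl8 lie on chromosome 11 between 82035571 and 82116799, and Ccl5, Ccl9, Ccl6, Ccl3 and Ccl4 on the same chromosome between 83525778 and 83664683. The promoters of Cxcl1, Cxcl2 and Cxcl3 are shown because these neutrophil attractants are described first below and share stretches of letters; they were picked after the matches were seen. Each runs from 250 bases before to 50 after the gene's start (RefSeq, GRCm38.p6). Capitals mark the 2 stretches of at least 10 bases that all 3 share.

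Cxcl1, chr5:90890995-90891294, plus strand: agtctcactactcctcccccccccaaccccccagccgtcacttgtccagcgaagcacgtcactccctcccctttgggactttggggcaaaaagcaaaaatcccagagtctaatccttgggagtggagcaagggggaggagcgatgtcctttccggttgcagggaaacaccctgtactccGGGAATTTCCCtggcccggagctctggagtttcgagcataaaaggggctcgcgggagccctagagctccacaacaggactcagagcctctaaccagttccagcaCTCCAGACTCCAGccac
Cxcl2, chr5:90903649-90903948, plus strand: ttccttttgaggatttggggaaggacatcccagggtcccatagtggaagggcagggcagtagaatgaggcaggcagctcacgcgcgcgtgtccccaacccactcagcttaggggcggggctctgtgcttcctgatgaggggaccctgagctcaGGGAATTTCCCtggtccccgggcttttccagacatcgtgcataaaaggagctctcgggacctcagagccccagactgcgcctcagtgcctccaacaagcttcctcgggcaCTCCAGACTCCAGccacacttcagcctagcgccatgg
Cxcl3, chr5:90785851-90786150, plus strand: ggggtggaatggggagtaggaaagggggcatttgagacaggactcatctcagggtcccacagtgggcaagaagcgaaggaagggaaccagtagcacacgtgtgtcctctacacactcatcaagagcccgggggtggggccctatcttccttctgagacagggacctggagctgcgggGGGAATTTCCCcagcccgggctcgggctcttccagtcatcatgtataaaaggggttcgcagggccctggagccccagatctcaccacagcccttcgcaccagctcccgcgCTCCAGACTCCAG

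The first stretch, GGGAATTTCCC, has 11 bases, and such letters are known as a binding site of NF-kB, an inflammatory transcription factor. Counting from the start, it begins at -71 in Cxcl1, -97 in Cxcl2 and -73 in Cxcl3. On either strand it occurs in 0.0426% of all 32851 mouse promoters of this length, and among the 32 chemokine genes with a promoter at hand in these 3 alone. The other stretch, CTCCAGACTCCAG, has 13 bases, lies after the start and occurs in 0.0122% of all promoters. TGANTCA, the letters of AP-1, occurred in Ccl9, Cxcl9 and Cxcl10 and in 7.81% of all promoters. TTCNNNGAA, the letters of STAT sites, occurred in Ccl17, Ccr6 and Cxcl14 and in 8.3% of all. The core of the interferon-stimulated response element occurred in Ccl19, Cxcl10 and Cxcl14 and in 3.44% of all. TATAAA occurred in 11 of the 32 genes, Cxcl3 among them, and in 13.6% of all. None of these matches overlapped another in the promoters shown.

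The neutrophil attractants Cxcl1, Cxcl2 and Cxcl3 were highest in the Csf1r gate in every library, and Cxcl1 and Cxcl2 were lower in both irradiated libraries than in NoIR2 in some, but not all, of their sources. Cxcl2, a ligand of Cxcr2, had 6412 CPM [6328–6496] in KO, 4379.9 CPM [4279–4483] in irradiated WT and 10969 CPM [10876–11063] in NoIR2 in the Csf1r gate, a log2 ratio of -1.32 between irradiated WT and NoIR2 and of 0.55 between KO and irradiated WT. It was found in 167 KO, 54 irradiated WT and 484 NoIR2 barcodes of the gate. In irradiated WT 24.4% of the barcodes in the gate were of male type, and the gate fell below 50 barcodes when only female-type barcodes were taken. Without UMIs of other gates, Cxcl2 stood at 8794 CPM in KO, 6483 CPM in irradiated WT and 14970.0 CPM in NoIR2. The order of the libraries was the same in both selections of barcodes, with NoIR2 highest.

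T cells carried Cxcl2 as well, most highly in the Trdc part of the gate, the γδ T cells, where it had 1518 CPM [1496–1539.9] in KO, 1191 CPM [1163–1219] in irradiated WT and 2776 CPM [2718–2835] in NoIR2. Over the whole T gate it had 634 CPM in KO, 666 CPM in irradiated WT and 1324 CPM in NoIR2, and a log2 ratio of -0.99 between irradiated WT and NoIR2 that missed the limit. Cxcl2 in the Cd8 part of the T gate had 85.5 CPM in KO, 40.0 CPM in irradiated WT and 316 CPM in NoIR2, and in the Cd4 part 354 CPM in KO, 100.4 CPM in irradiated WT and 226 CPM in NoIR2. By CPM, NoIR2 was thus highest in the Trdc and Cd8 parts but not in the Cd4 part, where KO was highest. In that part 3 barcodes held 73.6% of the Cxcl2 UMIs in KO, 51.0% in irradiated WT and 72.7% in NoIR2. A Cxcl2 UMI was found there in 20.3% of KO, 10.9% of irradiated WT and 29.1% of NoIR2 barcodes, with NoIR2 highest.

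Cxcl1, a neutrophil attractant made by epithelium, stroma and macrophages, differed most in the epithelial gate, with 165 CPM [150.5–180.1] in KO, 106 CPM [93.7–119.6] in irradiated WT and 457 CPM [441–474] in NoIR2. It was lower in irradiated WT than in NoIR2, at 0.232-fold [0.204–0.263] and a log2 ratio of -2.06, and this call remained under all 14 alternative settings. Not every setting could remove it, since clearing gates of other lineages left the epithelial barcodes unchanged. KO and irradiated WT lay closer, at a log2 ratio of 0.61, and 28 KO, 21 irradiated WT and 157 NoIR2 barcodes carried the gene. In fibroblasts Cxcl1 had 379.6 CPM in KO, 433 CPM in irradiated WT and 327 CPM in NoIR2, with no difference past the limit. In the Csf1r gate it had 710.2 CPM in KO, 779.8 CPM in irradiated WT and 1274 CPM in NoIR2, also within the limit.

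Cxcl3, a further Cxcr2 ligand, had 323 CPM in KO, 556 CPM in irradiated WT and 820.3 CPM in NoIR2 in the Csf1r gate, with 89.8% of its UMIs in irradiated WT in 3 barcodes. In the endothelial gate Cxcl3 was called higher in irradiated WT than in NoIR2 (log2 ratio 2.42) and lower in KO than in irradiated WT (-1.20). Of the irradiated WT UMIs there 89.2% came from 3 barcodes, and without the 3 highest barcodes of each library the ratios were -0.025 and 0.86, and neither call remained. Cxcl5, an epithelial neutrophil attractant, had 27.1 CPM [21.5–33.7] in KO, 60.2 CPM [51.0–70.6] in irradiated WT and 10.5 CPM [8.14–13.3] in NoIR2 in the epithelial gate, in 10 KO, 8 irradiated WT and 7 NoIR2 barcodes. It was higher in irradiated WT than in NoIR2 (log2 ratio 2.07) and lower in KO than in irradiated WT (-1.02), with 83.6% to 93.4% of the UMIs of a library in 3 barcodes. Its calls in the NK gate rested on 1 irradiated WT barcode with 35 UMIs, and that in the Csf1r gate on 3 KO barcodes.

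Cxcl15, or lungkine, is made by lung epithelium and had 1226 CPM [1186–1266] in KO, 1682 CPM [1632–1733] in irradiated WT and 3603 CPM [3557–3650.0] in NoIR2 in the epithelial gate. It was lower in irradiated WT than in NoIR2, at 0.467-fold [0.452–0.482], while KO and irradiated WT differed by a log2 ratio of -0.45, within the limit. The calls of Cxcl15 in the Csf1r gate, 1.98 for irradiated WT over NoIR2 and -5.73 for KO over irradiated WT, came from 6 irradiated WT barcodes. The type 2 alveolar markers above were also highest in irradiated WT in this gate. Among Csf1r barcodes without UMIs of other gates the ratio of irradiated WT over NoIR2 was -2.37. Pf4, or Cxcl4, a platelet granule chemokine also found in macrophages, had 15.3 CPM in KO, 76.9 CPM in irradiated WT and 61.4 CPM in NoIR2 in the Csf1r gate and was called lower in KO than in irradiated WT there (-2.02). It was found in 15 KO, 9 irradiated WT and 33 NoIR2 barcodes, and the C1q-positive part of the gate held 120 of the 125 irradiated WT UMIs. The call remained in 8 of 14 settings, was lost in cleared gates and without the 3 highest barcodes, and turned to 0.29 with exactly 1 gate. Its endothelial calls rested on 5 irradiated WT barcodes.

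**Figure D2:**
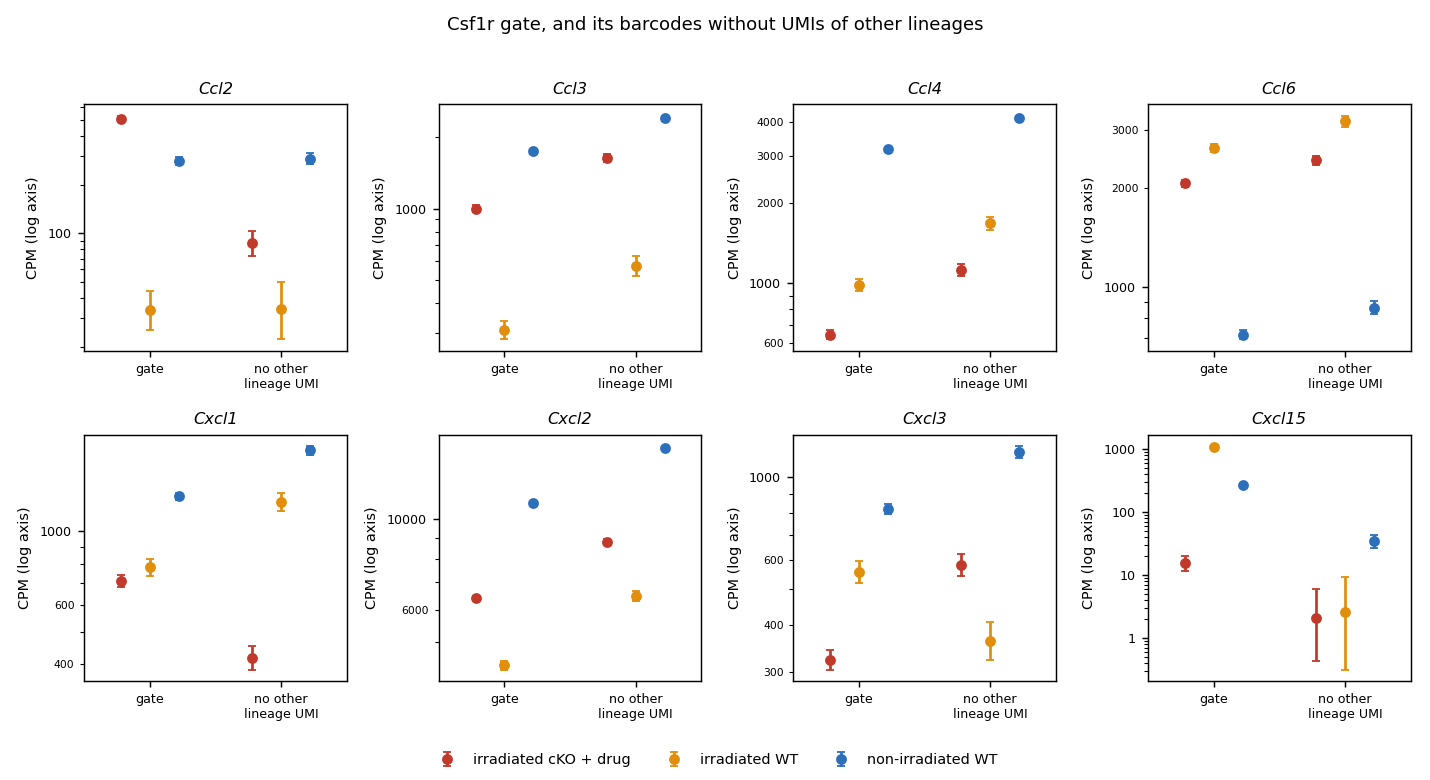
CPM of 8 ligands (log axes) in the whole Csf1r gate, for KO, irradiated WT and NoIR2. Beside it are its barcodes without UMIs of the T, B, epithelial and fibroblast gate genes. Bars are exact 95% Poisson intervals. Cxcl2, Ccl3 and Ccl4 are highest in NoIR2 and Ccl6 in the irradiated libraries in both selections, while the Ccl2 level of KO and the Cxcl15 level of irradiated WT move with the selection.

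The monocyte attractants Ccl2 and Ccl7 differed between libraries mainly in the Csf1r gate, and there a few barcodes set the KO level. Ccl2, the main ligand of Ccr2, had 508 CPM [485–532] in KO, 33.9 CPM [25.5–44.1] in irradiated WT and 279 CPM [264–295] in NoIR2 in that gate. It was lower in irradiated WT than in NoIR2 (log2 ratio -2.87) and higher in KO than in irradiated WT (3.72). In KO 91.4% of its UMIs lay in 3 barcodes, and without UMIs of other gates Ccl2 had 86.9 CPM in KO, 34.0 CPM in irradiated WT and 289 CPM in NoIR2. There NoIR2 was highest and irradiated WT lowest. In the C1q-positive part of the gate, the macrophages that express complement C1q, Ccl2 had 86.1 CPM [69.0–106] in KO, 40.6 CPM [24.4–63.4] in irradiated WT and 813 CPM [752–878] in NoIR2, over 37 KO, 13 irradiated WT and 67 NoIR2 barcodes.

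Ccl7, a related monocyte attractant, had 102 CPM in KO, 6.16 CPM in irradiated WT and 83.3 CPM in NoIR2 in the Csf1r gate, with log2 ratios of -2.98 for irradiated WT over NoIR2 and 3.26 for KO over irradiated WT. In KO 96.1% of its UMIs lay in 3 barcodes, and the second call was lost without them. Fibroblasts were the other source of both genes. Fibroblast Ccl2 had 333 CPM [322–345] in KO, 364 CPM [347–383] in irradiated WT and 237 CPM [232–243] in NoIR2, and fibroblast Ccl7 76.0 CPM in KO, 59.2 CPM in irradiated WT and 44.5 CPM in NoIR2, with no call. Within fibroblasts Ccl2 ran in opposite orders: the Pi16 part, adventitial fibroblasts, had 282 CPM in KO, 285 CPM in irradiated WT and 610.0 CPM in NoIR2, and the part with Ces1d or Npnt, genes of alveolar fibroblasts, had 359 CPM in KO, 288 CPM in irradiated WT and 159.6 CPM in NoIR2. NoIR2 was highest in the Pi16 part and lowest in the other. These parts do not make up the gate: in irradiated WT they held 66 and 286 of 424 barcodes. There the whole gate had a higher Ccl2 level than each part, so the barcodes left out were higher still.

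Ccl8, a monocyte and T cell attractant, was called higher in KO than in irradiated WT in the Csf1r gate (2.39), where it had 21.3 CPM [16.7–26.7] in KO, 0 CPM [0–2.27] in irradiated WT and 1.46 CPM [0.586–3.00] in NoIR2. With 0 UMIs in irradiated WT this ratio depends on the 5 CPM added; without them, the exact 95% interval of the ratio begins at 9.15-fold. The call remained in 10 of 14 alternative settings and was lost without the 3 highest barcodes. In the C1q part it was found in 11 KO, 0 irradiated WT and 2 NoIR2 barcodes. A KO call of 1.86 in the endothelial gate came from 84 UMIs in 2 barcodes. Ccl12, a further Ccr2 ligand of mice, had only 12 UMIs in KO, 6 in irradiated WT and 38 in NoIR2 over all kept barcodes. Ccl11, or eotaxin, had 39.1 CPM in KO, 25 CPM in irradiated WT and 40.4 CPM in NoIR2 in fibroblasts and 160.4 CPM in KO, 104 CPM in irradiated WT and 188 CPM in NoIR2 in the Pi16 part, with no call. Ccl24, a second eotaxin, had 4 UMIs in KO, 1 in irradiated WT and 28 in NoIR2 over all kept barcodes.

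The macrophage inflammatory proteins split into opposite directions in the Csf1r gate: Ccl6 was higher in irradiated WT than in NoIR2, and Ccl3 and Ccl4 were lower. Of the 20 genes tested in that gate in this comparison 2 were higher and 7 lower, against 9.86% of all genes in either direction. Ccl6, a Ccr1 ligand of macrophages, had 2061 CPM [2013–2109] in KO, 2639 CPM [2561–2719] in irradiated WT and 715 CPM [691–739] in NoIR2, which is 3.69-fold [3.53–3.86] for irradiated WT over NoIR2 and a log2 ratio of 1.88. It was found in 128 KO, 55 irradiated WT and 324 NoIR2 barcodes, and without UMIs of other gates it had 2419 CPM in KO, 3182 CPM in irradiated WT and 863 CPM in NoIR2. Both irradiated libraries were above NoIR2 in the C1q part (2914 CPM in KO, 4083 CPM in irradiated WT and 968 CPM in NoIR2) and in the rest of the gate (1705 CPM in KO, 2055 CPM in irradiated WT and 664 CPM in NoIR2). In the C1q part, with 13 irradiated WT barcodes, 3 barcodes held 60.5% of the Ccl6 UMIs in KO, 89.7% in irradiated WT and 54.9% in NoIR2. The Ccl6 call, like every call of the first and second comparison in this gate, was lost with raised gate minima and with female-type barcodes. Fewer than 50 irradiated WT barcodes were then left.

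Ccl4, a macrophage inflammatory protein, had 644 CPM [618–672] in KO, 987 CPM [939–1036] in irradiated WT and 3169.8 CPM [3119.6–3221] in NoIR2 in the Csf1r gate and a log2 ratio of -1.68 for irradiated WT over NoIR2. KO stood below irradiated WT, at a log2 ratio of -0.61, which missed the limit, and 79.8% of the irradiated WT UMIs lay in 3 barcodes. The C1q-positive part had 932 CPM in KO, 2793 CPM in irradiated WT and 10661 CPM in NoIR2 of Ccl4. Ccl3, a ligand of Ccr1, had 998 CPM [965–1032] in KO, 307 CPM [281–335] in irradiated WT and 1742 CPM [1705–1780.2] in NoIR2, with log2 ratios of -2.49 for irradiated WT over NoIR2 and 1.68 for KO over irradiated WT. Ccl3 was found in 151 KO, 44 irradiated WT and 402 NoIR2 barcodes, and NoIR2 had the highest and irradiated WT the lowest level. Neutrophil markers also differed between the libraries in this gate, and their part in these values was not tested. Ccl9, a further Ccr1 ligand, had 196 CPM in KO, 262 CPM in irradiated WT and 415 CPM in NoIR2 and no call there.

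NK cells had the highest levels of Ccl3, Ccl4 and Ccl5 among the 7 gates and gave no call for these genes. The gate held a minor share of their UMIs, for Ccl5 24.9% in KO, 24.4% in irradiated WT and 32.5% in NoIR2, while barcodes of no gate held 32.2% of its UMIs in KO, 41.5% in irradiated WT and 37.0% in NoIR2. For Ccl4 the NK share was 26.3% in KO, 23.6% in irradiated WT and 16.9% in NoIR2, and barcodes of no gate held 45.4% of its UMIs in KO, 51.2% in irradiated WT and 30.7% in NoIR2. NK levels of Ccl3 were 2508 CPM in KO, 1926 CPM in irradiated WT and 2634 CPM in NoIR2, and those of Ccl4 were 4258 CPM in KO, 3066 CPM in irradiated WT and 4022 CPM in NoIR2. Ccl5, a chemokine of cytotoxic lymphocytes, had 25561 CPM [25372–25752] in KO, 19637 CPM [19431–19844] in irradiated WT and 20322 CPM [20122–20523] in NoIR2 in NK cells. Of the 9 genes tested in NK cells between irradiated WT and NoIR2, 1 was higher and 1 lower, against 2.13% of all genes in either direction. The higher was Cxcl5, from the single barcode above, and the lower was Cxcl16, with 23.1 CPM [17.8–29.6] in KO, 9.62 CPM [5.60–15.4] in irradiated WT and 32.9 CPM [25.3–42] in NoIR2 and a log2 ratio of -1.37, in 21 KO, 6 irradiated WT and 25 NoIR2 barcodes. The Cxcl16 call remained in 5 of 14 settings, and its log2 ratio ran from -2.11 to -0.84 over all of them. It was lost, among others, with at least 500 genes, without doublets, in cleared gates and without the 3 highest barcodes. In NoIR2 its NK level was 20.4% of that in its highest gate, just above the 20% required. Clearing gates left the NK barcodes unchanged, so that loss was not a change of this ratio. Between KO and irradiated WT the only NK call of 9 was Cxcl5, against 0.84% of all genes.

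T cells carried Ccl5 at 2617 CPM [2602–2633] in KO, 1862 CPM [1844–1880.4] in irradiated WT and 1304 CPM [1285–1322] in NoIR2, with log2 ratios of 0.51 for irradiated WT over NoIR2 and 0.49 for KO over irradiated WT, both within the limit. The order KO, irradiated WT, NoIR2 was the same in the Cd8 part (3604 CPM in KO, 3404 CPM in irradiated WT and 1269 CPM in NoIR2) and in the Cd4 part (1115 CPM in KO, 536 CPM in irradiated WT and 377 CPM in NoIR2). In the Trdc part Ccl5 had 2022 CPM in KO, 1492 CPM in irradiated WT and 1657 CPM in NoIR2, with irradiated WT lowest. Ccl4 in the Trdc part had 154 CPM in KO, 90.0 CPM in irradiated WT and 53.8 CPM in NoIR2, highest in KO.

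Among the 28 ligands, Xcl1 was the one called apart in T cells, where both irradiated libraries were above NoIR2. Xcl1, or lymphotactin, is made by activated CD8 T cells and NK cells and attracts cross-presenting dendritic cells through Xcr1. It had 419.5 CPM [413–426] in KO, 421 CPM [412–429.6] in irradiated WT and 178 CPM [171–185] in NoIR2 in the T gate, 2.36-fold [2.26–2.47] for irradiated WT over NoIR2 and a log2 ratio of 1.22. KO over irradiated WT was 0.997-fold [0.972–1.02], and a UMI was found in 28.6% of KO, 25.5% of irradiated WT and 11.9% of NoIR2 barcodes. Of the 12 genes tested in T cells between irradiated WT and NoIR2, Xcl1 and Ccr8 were higher and none was lower, against 1.01% of all genes in either direction; KO over irradiated WT gave 0 of 12, against 0.253%. In the B gate, whose cells are not known to make it, an Xcl1 UMI was found in 7.47% of KO, 3.85% of irradiated WT and 3.30% of NoIR2 barcodes, at median depths of 4745 to 6054 UMIs against 6614 to 6914 in the T gate.

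The Xcl1 difference was not the same in the parts of the T gate compared here. They leave out barcodes without Trdc, Cd8 or Cd4 UMIs, and those with both Cd8 and Cd4 but no Trdc. The gate held 5103 KO, 2674 irradiated WT and 1859 NoIR2 barcodes. Its Cd8 part held 1061 KO, 406 irradiated WT and 498 NoIR2 barcodes, and its Cd4 part 561, 457 and 230. In KO the whole gate had a higher Xcl1 level than each part, so the barcodes left out were higher still. Their level was not computed in any library, so the parts do not account for the whole difference in the gate. In the Cd8 part Xcl1 had 355 CPM [344–366] in KO, 655 CPM [631–679.8] in irradiated WT and 90.4 CPM [81.8–99.7] in NoIR2, with irradiated WT highest and KO in between. The Cd4 part had 83.6 CPM in KO, 75.3 CPM in irradiated WT and 53.2 CPM in NoIR2. The Trdc part, with 1649 KO, 851 irradiated WT and 397 NoIR2 barcodes, had 295 CPM [285–305] in KO, 260.5 CPM [248–274] in irradiated WT and 232 CPM [215–249.6] in NoIR2, a far smaller spread. In NK cells, the gate with its highest level, Xcl1 had 1799 CPM [1749–1850.4] in KO, 1822 CPM [1759–1886] in irradiated WT and 2675 CPM [2603–2749] in NoIR2, and there NoIR2 was highest. In irradiated WT, female-type T barcodes had 452 CPM and male-type ones 338 CPM, both above the 184 CPM of female-type NoIR2 barcodes. The Xcl1 call was lost when each barcode was thinned to 1000 UMIs and when every barcode was given the same weight, and over all settings its log2 ratio ran from 0.69 to 1.28.

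**Figure D3:**
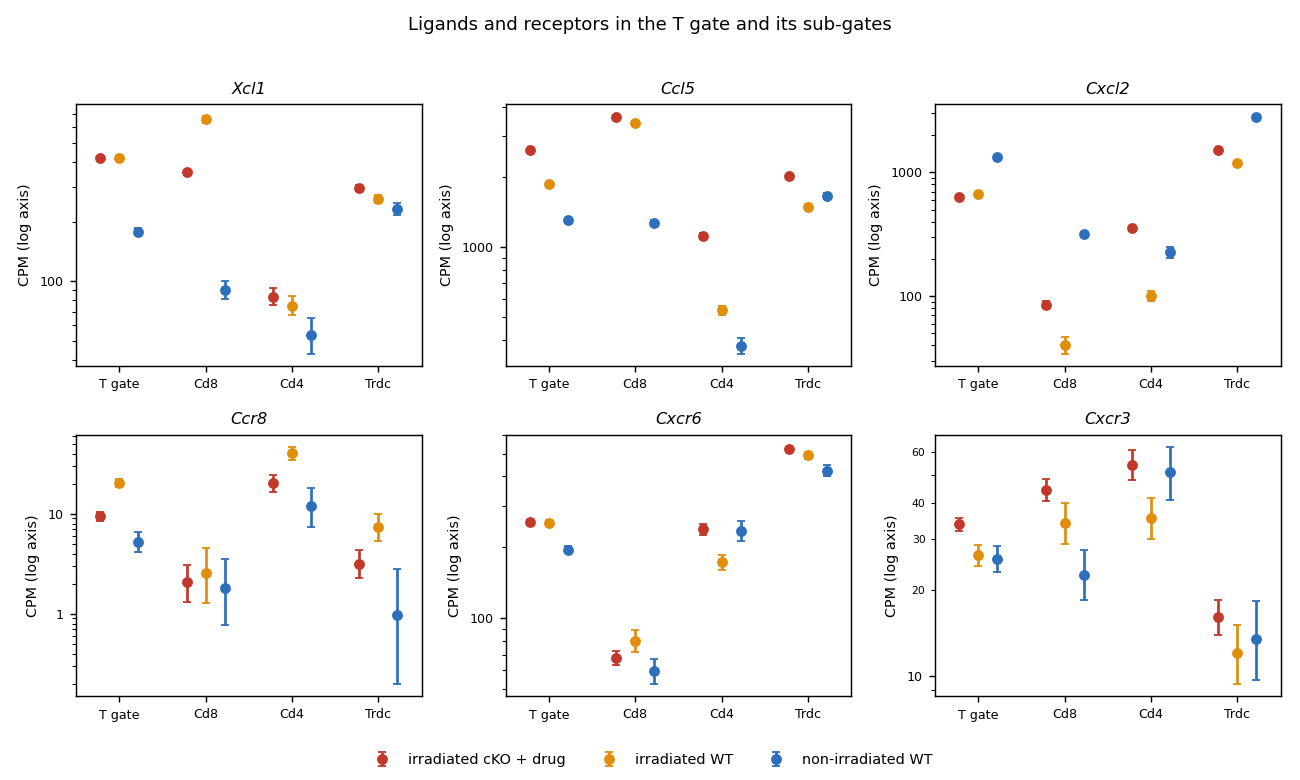
CPM of 3 ligands and 3 receptors (log axes) in the T gate and in its Cd8, Cd4 and Trdc parts, for KO, irradiated WT and NoIR2; bars are exact 95% Poisson intervals. Xcl1 is above NoIR2 in both irradiated libraries in the gate and the Cd8 part, and Ccr8 is highest in irradiated WT in the gate and the Cd4 part.

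Cxcl9 and Cxcl10, the interferon-induced ligands of Cxcr3, lie side by side on chromosome 5 (92321347 to 92348889), and Cxcl10 was higher in irradiated WT than in NoIR2 in endothelial and fibroblast barcodes. In the endothelial gate Cxcl10 had 228 CPM [217–240.4] in KO, 177 CPM [164–191] in irradiated WT and 70.7 CPM [67.2–74.4] in NoIR2, with a log2 ratio of 1.26 for irradiated WT over NoIR2 and 0.36 for KO over irradiated WT. Without Ptprc it had 257 CPM [235–281] in KO, 175 CPM [150.0–204] in irradiated WT and 51.4 CPM [47.9–55.1] in NoIR2, so both irradiated libraries were above NoIR2 in both selections. This call remained in 13 of 14 alternative settings and was lost without the 3 highest barcodes. In fibroblasts Cxcl10 had 201 CPM [192–209.7] in KO, 256 CPM [241–271] in irradiated WT and 115 CPM [111–119] in NoIR2, with log2 ratios of 1.12 and -0.34 for the same comparisons, in 182 KO, 80 irradiated WT and 766 NoIR2 barcodes. The fibroblast call remained in 11 of 14 settings and was lost after thinning, with equal weights and without the 3 highest barcodes (0.72). The 15 genes tested in fibroblasts gave 2 higher, Cxcl10 and Cxcl13, and none lower in irradiated WT against NoIR2, against 0.961% of all genes.

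In the Csf1r gate the order was different, since Cxcl10 had 189.6 CPM in KO, 289 CPM in irradiated WT and 470.3 CPM in NoIR2, highest in NoIR2 and within the limit. T cells had 319 CPM in KO, 239 CPM in irradiated WT and 175 CPM in NoIR2, and their Trdc part 669 CPM in KO, 428 CPM in irradiated WT and 395 CPM in NoIR2, with KO highest. In B cells Cxcl10 was the only call of KO over irradiated WT among 6 genes (0.646% of all genes), with 90.5 CPM [82.8–98.7] in KO, 24.9 CPM [19.9–30.8] in irradiated WT and 54.9 CPM [49.96–60.3] in NoIR2 and a log2 ratio of 1.68. That call remained in 9 of 14 settings and was lost with exactly 1 gate, without doublets, after thinning, with equal weights and without the 3 highest barcodes. Irradiated WT over NoIR2 gave no call of 6 in B cells (0.858% of all). Cxcl9 was low: in fibroblasts it had 3.37 CPM [2.31–4.76] in KO, 17.8 CPM [14.1–22.2] in irradiated WT and 13.3 CPM [12.1–14.6] in NoIR2, in 13 KO, 5 irradiated WT and 33 NoIR2 barcodes, and was called lower in KO than in irradiated WT (-1.44). That call was from 5 irradiated WT barcodes, and without the 3 highest the ratio was 0.15. Cxcr3, their receptor, showed no call in T cells, with 33.6 CPM [31.9–35.4] in KO, 26.3 CPM [24.2–28.6] in irradiated WT and 25.5 CPM [23.0–28.2] in NoIR2.

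The endothelial gate held the largest number of calls, and Cxcl12 was the clearest of them. Of 20 genes tested there between irradiated WT and NoIR2, 11 were higher and 4 lower, against 17.6% of all genes in either direction; of 21 tested between KO and irradiated WT, 4 were higher and 5 lower, against 1.63% of all. Cxcl12, the ligand of Cxcr4 and Ackr3, had 220.1 CPM [209–232] in KO, 65.9 CPM [58.1–74.5] in irradiated WT and 511 CPM [501–521] in NoIR2. It was lower in irradiated WT than in NoIR2 (log2 ratio -2.86) and higher in KO than in irradiated WT (1.67), and both calls remained under all 14 alternative settings. Without Ptprc Cxcl12 had 624 CPM [589–661] in KO, 244 CPM [213–277] in irradiated WT and 621 CPM [608–633] in NoIR2, in 39.9% of KO, 25.2% of irradiated WT and 60.6% of NoIR2 barcodes. There KO and NoIR2 had almost the same level, and irradiated WT remained below both, though it rested on 107 barcodes.

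The part of these barcodes with Car4 or Ednrb, genes of aerocyte capillaries, had 373 CPM [326–425] in KO, 232 CPM [184–289.8] in irradiated WT and 654 CPM [634–675] in NoIR2 of Cxcl12, over 69 KO, 42 irradiated WT and 549 NoIR2 barcodes. The part without them had 741 CPM [694–789] in KO, 249.5 CPM [212–292] in irradiated WT and 598 CPM [583–614] in NoIR2, over 207 KO, 65 irradiated WT and 1728 NoIR2 barcodes. Irradiated WT was lowest in both, while KO was below NoIR2 in the aerocyte part and above it in the other. Within irradiated WT, 228 female-type endothelial barcodes had 85.5 CPM of Cxcl12 and 93 male-type ones 23.0 CPM, both below the 225 CPM of female-type KO and the 517 CPM of female-type NoIR2 barcodes. In fibroblasts, the other strong source, Cxcl12 had 321 CPM [310.0–333] in KO, 264 CPM [249–279] in irradiated WT and 284 CPM [279–289.9] in NoIR2 and no call. The difference between irradiated WT and NoIR2 was therefore seen in endothelial barcodes and not past the limit in fibroblasts; the difference between these 2 effects was not tested.

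Ackr3, the atypical receptor that takes up Cxcl12, had 50.6 CPM [45.2–56.4] in KO, 24.1 CPM [19.5–29.6] in irradiated WT and 85.0 CPM [81.1–89.0] in NoIR2 in the endothelial gate and was called lower in irradiated WT than in NoIR2 (-1.63). Without Ptprc it had 141 CPM in KO, 76.4 CPM in irradiated WT and 104 CPM in NoIR2, with KO highest, and the call did not remain in gates cleared of other cells. Cxcl14, an epithelial and stromal chemokine, had 16.7 CPM [13.7–20.2] in KO, 22.6 CPM [18.1–27.8] in irradiated WT and 151 CPM [146–157] in NoIR2 in the endothelial gate and a log2 ratio of -2.50 for irradiated WT over NoIR2. Without Ptprc it had 31.3 CPM [23.9–40.4] in KO, 67.1 CPM [51.8–85.5] in irradiated WT and 176 CPM [169.8–183] in NoIR2, so KO was lowest and NoIR2 highest, in 20 KO, 4 irradiated WT and 366 NoIR2 barcodes. In fibroblasts, its main source, Cxcl14 had 611 CPM in KO, 704 CPM in irradiated WT and 754 CPM in NoIR2 and no call. Cx3cl1, the membrane-bound ligand of Cx3cr1, had 16.3 CPM [13.3–19.7] in KO, 18.2 CPM [14.2–22.9] in irradiated WT and 42.9 CPM [40.1–45.8] in NoIR2 and was called lower in irradiated WT than in NoIR2 (-1.05), but without Ptprc it had 34.5 CPM in KO, 47.5 CPM in irradiated WT and 53.3 CPM in NoIR2, much closer together.

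Ackr1, the Duffy antigen receptor of venular endothelium, had 15.7 CPM [12.7–19.0] in KO, 2.08 CPM [0.896–4.09] in irradiated WT and 3.95 CPM [3.15–4.90] in NoIR2 and was called higher in KO than in irradiated WT (1.55). It was found in 13 KO, 1 irradiated WT and 19 NoIR2 barcodes without Ptprc, where it had 51.0 CPM [41.3–62.3] in KO, 8.26 CPM [3.56–16.3] in irradiated WT and 5.18 CPM [4.11–6.44] in NoIR2. All of these KO barcodes lay in the part without Car4 or Ednrb, with 74.5 CPM in KO, 12.6 CPM in irradiated WT and 7.10 CPM in NoIR2. Seen from the levels, KO was above both other libraries, but the irradiated WT level without Ptprc came from 1 barcode.

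**Figure D4:**
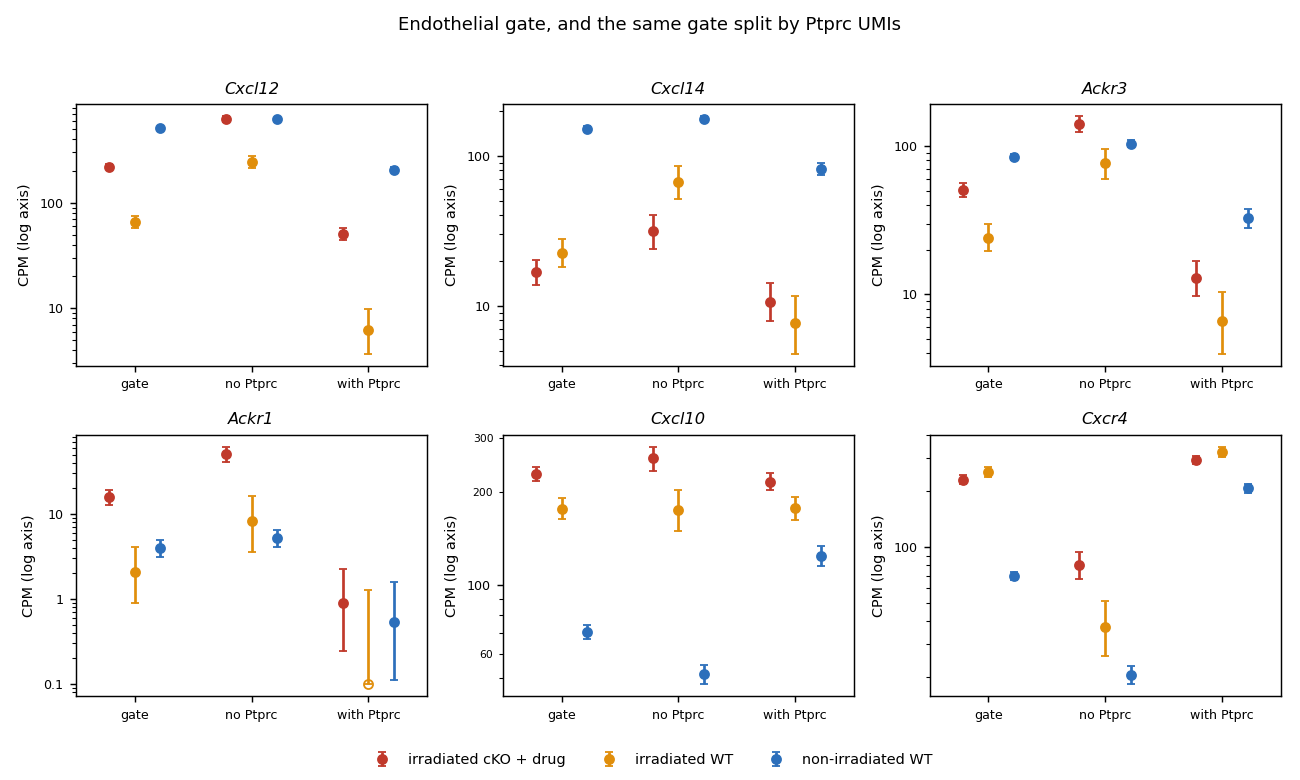
CPM of 6 genes (log axes) in the whole endothelial gate, in its barcodes without Ptprc and in those with it, for KO, irradiated WT and NoIR2; bars are exact 95% Poisson intervals and an open circle marks 0 UMIs. Without Ptprc, Cxcl12 is level between KO and NoIR2 and lower in irradiated WT, Cxcl10 is above NoIR2 in both irradiated libraries, and Cxcr4 is lower than in the barcodes with Ptprc.

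In KO over irradiated WT the endothelial gate also gave Ccl9 as higher (1.16), from 54 KO and 13 irradiated WT barcodes. Without Ptprc it had 22.3 CPM [16.1–30.1] in KO, 2.06 CPM [0.250–7.46] in irradiated WT and 2.33 CPM [1.63–3.23] in NoIR2. The call remained in 8 of 14 settings, not with exactly 1 gate, without doublets or in gates cleared of other lineages. KO and irradiated WT without Ptprc still lay past the 2-fold limit, so that loss came from another requirement of the rule. Over all settings the Ccl9 log2 ratio ran from 0.80 to 2.45. Cxcl1 was lower in the whole endothelial gate (-1.44), from 40 KO and 14 irradiated WT barcodes. Without Ptprc it had 170.5 CPM [152–190.2] in KO, 271 CPM [239.6–306] in irradiated WT and 99.5 CPM [94.6–105] in NoIR2. The call remained in 7 of 14 settings, was lost in cleared gates and without the 3 highest barcodes, and the ratio was 0.045 in female-type barcodes.

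Leukocyte receptors made up 6 of the 11 higher endothelial calls of irradiated WT over NoIR2. Cxcr4 had 231 CPM [219–243] in KO, 253 CPM [238–269.7] in irradiated WT and 69.7 CPM [66.2–73.4] in NoIR2 in the gate, and 79.7 CPM in KO, 37.1 CPM in irradiated WT and 20.5 CPM in NoIR2 without Ptprc. Ccr2 had 92.0 CPM in KO, 105 CPM in irradiated WT and 26.7 CPM in NoIR2, and 45.7 CPM in KO, 26.8 CPM in irradiated WT and 5.44 CPM in NoIR2 without Ptprc. Cxcr6 had 139.8 CPM in KO, 118 CPM in irradiated WT and 24.5 CPM in NoIR2, and 53.1 CPM in KO, 42.3 CPM in irradiated WT and 5.05 CPM in NoIR2 without Ptprc. All 3 were lower in the barcodes without Ptprc, and NoIR2 was lowest in both selections. All 3 calls were lost once barcodes with Ptprc were left out, at log2 ratios of 0.72 for Cxcr4, 1.61 for Ccr2 and 2.24 for Cxcr6. Only the Cxcr4 ratio fell below the 2-fold limit. For Ccr2 and Cxcr6 the irradiated WT levels without Ptprc were under the required 20% of those in T cells, 171 CPM and 255 CPM. Ccr7, Ccr8 and Cxcr3, called higher in the gate at log2 ratios of 1.18, 1.81 and 1.38, came to -0.82, -0.090 and -0.055 in the same selection.

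Ccl17 and Ccl22, ligands of Ccr4 that mature dendritic cells make, were found in part outside the gates. Barcodes that passed no gate held 90.3% of Ccl22 UMIs in KO, 84.6% in irradiated WT and 69.9% in NoIR2, and of Ccl17 UMIs 76.0% in KO, 75.8% in irradiated WT and 37.0% in NoIR2. In those barcodes Ccl22 had 104 CPM in KO, 194 CPM in irradiated WT and 144 CPM in NoIR2, and Ccl17 had 79.8 CPM in KO, 206 CPM in irradiated WT and 81.4 CPM in NoIR2, with irradiated WT highest for both. Inside the gates their calls rested on few barcodes. The endothelial call of Ccl17 for irradiated WT over NoIR2 (2.76) came from 5 irradiated WT barcodes, and that of Ccl22 (1.40) from 4; the KO ratios over irradiated WT were -4.00 and -1.86. In the epithelial gate Ccl17 had 2.37 CPM in KO, 12 CPM in irradiated WT and 80.4 CPM in NoIR2 in 5 KO, 3 irradiated WT and 8 NoIR2 barcodes, with a log2 ratio of -2.33 for irradiated WT over NoIR2. Ccl22 there was lower in KO than in irradiated WT (-2.57), from 3 irradiated WT barcodes, and it was lower in the Csf1r gate as well (-2.10), where Ccl17 was lower in irradiated WT than in NoIR2 (-1.03). This Ccl17 call remained in 7 of 14 settings, and its direction turned in gates cleared of other lineages (2.09).

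Cxcl13 and Ccl19, which help to organise lymphoid tissue, had their highest levels in fibroblasts. Cxcl13, the ligand of Cxcr5 that attracts B cells, had 21.7 CPM [18.9–24.9] in KO, 50.2 CPM [43.8–57.2] in irradiated WT and 15.3 CPM [14.0–16.6] in NoIR2 in fibroblasts, higher in irradiated WT than in NoIR2 (log2 ratio 1.44) and lower in KO than in irradiated WT (-1.05). Only 8 irradiated WT barcodes carried it, with 81.6% of the UMIs in 3 of them, and neither call remained without the 3 highest barcodes. KO over irradiated WT gave 2 lower calls of 15 in fibroblasts, Cxcl13 and Cxcl9, against 0.61% of all genes. Ccl19, a Ccr7 ligand, had 12.2 CPM in KO, 24.5 CPM in irradiated WT and 20.4 CPM in NoIR2 in fibroblasts; the files hold it under 2 identifiers, summed here, and reads of such near-identical copies are uncertain. Its epithelial call of -1.19 for irradiated WT over NoIR2 was lost without the 3 highest barcodes. Cxcl16, the ligand of Cxcr6, had 139.6 CPM in KO, 178 CPM in irradiated WT and 162 CPM in NoIR2 in the Csf1r gate and 126 CPM in KO, 136 CPM in irradiated WT and 68.7 CPM in NoIR2 in the epithelial gate, with no call in either.

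In the epithelial gate, 1 of 9 tested genes was higher and 4 lower in irradiated WT against NoIR2, against 9.41% of all genes in either direction. Between KO and irradiated WT 2 of 7 were lower, Ccl22 and Cxcl5, against 1.55%. In the Csf1r gate 5 of 21 were higher and 3 lower in KO than in irradiated WT, against 3.38% of all. Between KO and NoIR2 the endothelial gate gave 10 higher and 3 lower of 20, against 12.1% of all genes in either direction, and the Csf1r gate 3 higher and 8 lower of 21, against 5.41%. The other gates gave 0 to 6 calls each in that comparison, against 0.316% of all genes in T cells, 0.923% in B cells, 0.999% in NK cells, 0.801% in fibroblasts and 8.03% in the epithelial gate.

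Among the receptors, Ccr8 was the T cell gene that differed most. Ccr8, the receptor of Ccl1 that marks tissue regulatory and type 2 T cells, had 9.48 CPM [8.57–10.5] in KO, 20.4 CPM [18.6–22.4] in irradiated WT and 5.29 CPM [4.17–6.61] in NoIR2 in the T gate, with 3.86-fold [3.03–4.99] and a log2 ratio of 1.31 for irradiated WT over NoIR2. It was found in 284 KO, 306 irradiated WT and 61 NoIR2 barcodes, and KO over irradiated WT had a log2 ratio of -0.81, within the limit. The Cd4 part had the highest level of the 3 parts, with 20.2 CPM [16.4–24.6] in KO, 40.5 CPM [34.6–47.1] in irradiated WT and 11.9 CPM [7.36–18.2] in NoIR2, and the Cd8 part had 2.07 CPM in KO, 2.56 CPM in irradiated WT and 1.80 CPM in NoIR2. Irradiated WT was highest in both of these parts, though the intervals of the Cd8 part overlap. After thinning to 1000 UMIs a Ccr8 UMI was found in 0.922% of KO, 1.38% of irradiated WT and 0.539% of NoIR2 barcodes, against 0% in the gate with the lowest share. The call of irradiated WT over NoIR2 was lost after thinning and with 20 CPM added. Over all settings its log2 ratio ran from 0.68 to 1.77. In irradiated WT, female-type barcodes had 25.3 CPM and male-type ones 15.2 CPM, both above the 5.85 CPM of female-type NoIR2 barcodes.

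Cxcr6, a receptor of tissue-resident T cells, had 257 CPM [252–261] in KO, 255 CPM [248–262] in irradiated WT and 196 CPM [188–203] in NoIR2 in the T gate and 523 CPM in KO, 491 CPM in irradiated WT and 423 CPM in NoIR2 in the Trdc part. A Cxcr6 UMI was found in 18.9% of KO, 19.6% of irradiated WT and 13.5% of NoIR2 barcodes after thinning and 49.0% of KO, 54.1% of irradiated WT and 39.2% of NoIR2 barcodes before, against 0.433% of KO, 0% of irradiated WT and 0.492% of NoIR2 barcodes after thinning in the gate with the lowest share in each library. Both irradiated libraries were above NoIR2, within the limit for a call. Ccr2, the Ccl2 receptor, had 149 CPM in KO, 171 CPM in irradiated WT and 128 CPM in NoIR2 in T cells and 93.6 CPM in KO, 102 CPM in irradiated WT and 131 CPM in NoIR2 in NK cells, and was highest in the Trdc part (301 CPM in KO, 332 CPM in irradiated WT and 276 CPM in NoIR2). Cxcr4 had 356 CPM in KO, 442 CPM in irradiated WT and 354 CPM in NoIR2 in NK cells and 295 CPM in KO, 359.7 CPM in irradiated WT and 243 CPM in NoIR2 in T cells, where irradiated WT was highest in both without a call.

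The lymphoid homing receptors gave no call in B or T cells in the first or second comparison. Ccr7, which brings lymphocytes and dendritic cells to lymph nodes, had 885 CPM [860.3–909.8] in KO, 816 CPM [786–847] in irradiated WT and 906 CPM [885–926] in NoIR2 in B cells and 435 CPM in KO, 386 CPM in irradiated WT and 529.6 CPM in NoIR2 in T cells. Cxcr5, the Cxcl13 receptor, had 90.3 CPM [82.6–98.6] in KO, 114 CPM [103–125] in irradiated WT and 115 CPM [108–123] in NoIR2 in B cells. Ccr6, the receptor of Ccl20, had 35.6 CPM [30.8–40.9] in KO, 28.7 CPM [23.3–34.9] in irradiated WT and 26.6 CPM [23.2–30.4] in NoIR2 in B cells and 9.94 CPM in KO, 15.5 CPM in irradiated WT and 9.01 CPM in NoIR2 in the Trdc part of the T gate.

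Among the myeloid receptors tested in the Csf1r gate, Cx3cr1 gave a call and Ccr1 did not. Ccr1, a receptor of Ccl3, Ccl6 and Ccl9, had 59.9 CPM [52.0–68.6] in KO, 76.3 CPM [63.5–91.0] in irradiated WT and 69.5 CPM [62.3–77.4] in NoIR2 in the Csf1r gate and no call. Cx3cr1, the receptor of Cx3cl1 on monocytes and resident macrophages, had 24.7 CPM [19.8–30.6] in KO, 14.2 CPM [8.97–21.2] in irradiated WT and 38.9 CPM [33.6–44.9] in NoIR2 and was called lower in irradiated WT than in NoIR2 (-1.20), from 23 irradiated WT UMIs. That call remained in 9 of 14 settings and was lost with 20 CPM added, raised minima, female-type barcodes, equal weights and cleared gates. Cxcr2, the neutrophil receptor of Cxcl1, Cxcl2 and Cxcl3, had 116 UMIs in KO, 56 in irradiated WT and 73 in NoIR2 over all kept barcodes, too few for any gate. Xcr1, the Xcl1 receptor of cross-presenting dendritic cells, had 1.55 CPM [1.28–1.86] in KO, 5.15 CPM [4.5–5.88] in irradiated WT and 0.364 CPM [0.245–0.519] in NoIR2 over all kept barcodes, in 44 KO, 61 irradiated WT and 19 NoIR2 barcodes. Irradiated WT was highest, and Xcr1 was called in no gate.

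**Figure D5:**
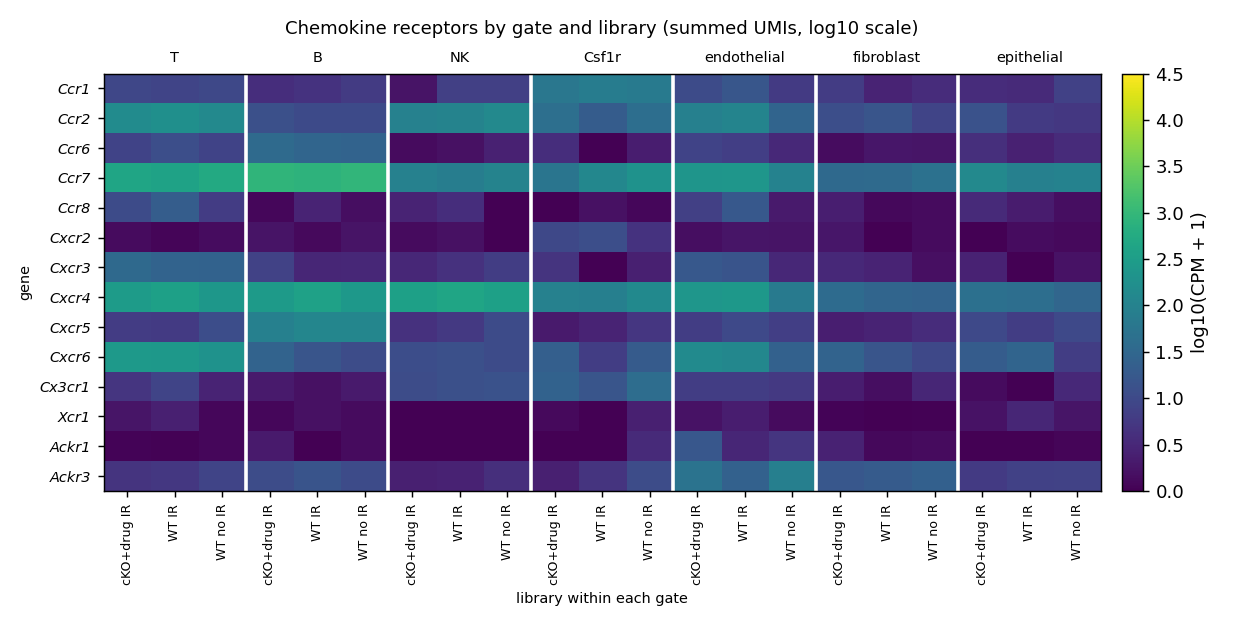
Levels of the 12 signalling and 2 atypical receptors, as log10(CPM + 1) of summed UMIs, by gate (blocks) and library (columns within a block, KO, irradiated WT, NoIR2). Ccr7 is brightest in the B gate, Cxcr6 in the T gate and Ackr3 in the endothelial gate in every library, and leukocyte receptors are brighter in the endothelial gate of KO and irradiated WT than of NoIR2.

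Paired by known ligand and receptor, the gates with the highest levels were mostly different ones. Per UMI of the gate, Ccl2 was highest in the Csf1r gate in KO and NoIR2 and in fibroblasts in irradiated WT. In KO this rested on few barcodes. Without UMIs of other gates, the KO level of Ccl2 in the Csf1r gate, given above, was below the 333 CPM of KO fibroblasts. Of all Ccl2 UMIs in kept barcodes, the fibroblast gate held 3162 of 3812 in KO, 1619 of 2374 in irradiated WT and 8220 of 9986 in NoIR2, and the Csf1r gate 1766 in KO, 55 in irradiated WT and 1341 in NoIR2. A barcode that passed both gates counts in each. Among the receptors, Ccr2 was highest in T cells in the irradiated libraries and in NK cells in NoIR2. Cxcl12 was highest in fibroblasts in KO and irradiated WT and in endothelial barcodes in NoIR2, with Cxcr4 highest in NK cells and Ackr3 in endothelial barcodes throughout. In all 3 libraries Cxcl13 was highest in fibroblasts and Cxcr5 in B cells, and Cxcl16 in the Csf1r gate and Cxcr6 in T cells. These are levels of RNA, and no contact between cells was measured.

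Of 22 other chemokine family genes listed, 21 were in the files, and few of them were tested. In T cells 7 were tested between irradiated WT and NoIR2, of which Ccl1, the ligand of Ccr8, was higher and Ccr9, a gut homing receptor, lower. Ccl1 had 4.01 CPM in KO (35 barcodes), 9.71 CPM in irradiated WT (30 barcodes) and 2.06 CPM in NoIR2 (8 barcodes) in T cells. In the epithelial gate Cxcl17, a mucosal chemokine, was higher in irradiated WT than in NoIR2, as 1 of 3 tested, with 433 CPM in KO (70 barcodes), 539.6 CPM in irradiated WT (58 barcodes) and 48.4 CPM in NoIR2 (70 barcodes). In the endothelial gate 1 of 8 was higher, Ccr4, and 4 were lower, Ccl21a, Ackr2, Ackr4 and Cmklr1. Ccl21a, the lymphatic ligand of Ccr7, had 44.3 CPM in KO (4 barcodes), 154 CPM in irradiated WT (2 barcodes) and 468 CPM in NoIR2 (190 barcodes), and it was the only call among 6 tested in KO against irradiated WT there, where it was lower; reads of its near-identical copies are uncertain. Of 17 chemokine signalling genes tested in the endothelial gate between irradiated WT and NoIR2, 6 were higher, all of them genes common in leukocytes (Rgs1, Rgs2, Rgs16, Dock2, Rac2, Pik3r5), and Arrb1 was lower; none of them was called between KO and irradiated WT.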

How the data were processed

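The files hold raw UMI counts per gene and barcode, deposited by the authors without normalization, from 10x 3′ libraries of lung. The file headers record software version 3.1.0, and the submitters' processing notes name the build mm10. An aligner is not given in the sources used here. All columns of per-sample values were used (0 others). The libraries hold 76667310 UMIs in 11292 barcodes (KO), 45800421 in 7084 (irradiated WT) and 85984536 in 15485 (NoIR2), and no barcode has fewer than 500 UMIs. UMIs were summed per gate, and gates needed 2 UMIs of the T, B, endothelial or fibroblast genes or 1 UMI of the NK, Csf1r or epithelial genes. Sub-gates used Trdc, then Cd8a or Cd8b1, or Cd4; at least 2 UMIs of the C1q genes, of Car4 and Ednrb, or of Ces1d and Npnt; and Pi16. Log2 ratios have 5 CPM added to both sides and set the first named library over the second. All 42 genes are accounted for, with values in full for those with a call in the first or second comparison (up to the 3 highest and 3 lowest per gate) and for the main source and carrier of 30 ligand and receptor pairs. Of other lists, up to 4 genes were named by size of ratio; further genes and parts of gates were picked after their values were seen. Some of these pairs are not reported here. The members, gates and lists were chosen with earlier results of these data known. With 1 library per group no count model was run. The call rule was tested on simulated counts with counting error only, so that test did not cover calls that rest on a few barcodes. Alternatives changed the pseudocount, the scale, the filters, the gates, doublets (Scrublet in scanpy 1.11.5), sex type, depth and weighting. Scripts ran in python 3.11.15 with pandas 2.3.3, scipy 1.17.1, numpy 2.4.6 and, for plots, matplotlib 3.10.9.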

Additional observations from a re-analysis of the deposited data

Results flagged for a closer look

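Some genes went in opposite directions in different gates under the same comparison; these differences between gates were not tested. Between irradiated WT and NoIR2, Ccl17 had a log2 ratio of 2.76 in the endothelial gate, against -1.03 in the Csf1r gate and -2.33 in the epithelial gate. Its endothelial UMIs lay in 5 irradiated WT and 28 NoIR2 barcodes, and its epithelial UMIs in 3 and 8. In the same comparison, Cxcl15 had a log2 ratio of 1.98 in the Csf1r gate and -1.10 in the epithelial gate. In irradiated WT its Csf1r UMIs lay in 6 barcodes, and summed type 2 alveolar markers in that gate were 20608 CPM in irradiated WT and 8778 CPM in NoIR2. Between KO and irradiated WT, Cxcl5 had a log2 ratio of 1.07 in the Csf1r gate, -1.52 in the NK gate and -1.02 in the epithelial gate. The Csf1r value came from 3 KO barcodes and 1 irradiated WT barcode, and the NK value from 2 and 1.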

How the results depend on the processing

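No paired analysis was possible because each group has 1 library. Of the 58 calls of irradiated WT over NoIR2 and of KO over irradiated WT, 3 remained under all 14 alternatives (12 planned, 2 chosen after seeing the data): endothelial Cxcl12 in both comparisons and epithelial Cxcl1 in the first. The calls that remained numbered 58 with 1 CPM added, 38 with 20 CPM added, 56 on the median-of-ratios scale, 58 with a minimum of 10 UMIs, 56 with at least 500 genes, 58 with at most 10% mitochondrial UMIs, 32 with barcodes of exactly 1 gate, 21 with gate minima raised by 1 UMI, 52 without doublets, 28 in female-type barcodes, 15 after thinning to 1000 UMIs, which leaves fewer UMIs to reach the minimum, 35 with every barcode weighted the same, 32 with gates cleared of other lineages and 25 without the 3 highest barcodes. Adding 1 CPM and a minimum of 10 UMIs only loosen the call rule, so these settings could not remove a call. Clearing of other lineages left the barcodes of the T, B, NK and epithelial gates unchanged. It could remove a call there only through the level in the gene's highest gate, as for Cxcl16 in NK cells. Single ratios of KO over NoIR2 were not recomputed.

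The counts of calls moved as follows, and the cause was not tested. Irradiated WT over NoIR2 (19 higher, 16 lower) gave 11 and 6 with raised minima, 6 higher after thinning, 8 higher without the 3 highest barcodes and 5 lower in female-type barcodes. KO over irradiated WT (10 higher, 13 lower) gave 6 and 8 with 20 CPM added, 6 and 4 with raised minima, 3 and 0 after thinning, 6 higher with exactly 1 gate, and 7 lower in female-type barcodes and 0 lower without the 3 highest barcodes. KO over NoIR2 (16 higher, 18 lower) gave 8 higher with 20 CPM added, 7 and 10 after thinning, 10 and 11 with equal weights and 7 higher without the 3 highest barcodes.

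At least 1 alternative reversed 22 of the 58. For irradiated WT over NoIR2 in the endothelial gate, Ccl17 became -0.14 with raised minima, -1.32 in female-type barcodes, -0.19 in cleared gates and -0.30 without the 3 highest barcodes. Pf4 became -0.32, -0.058, -0.091 and -0.33 under the same settings, and Ccl22 became -0.28, -0.27 and -0.20 under the last 3 of them. In cleared gates Ccr7 became -0.82, Ccr8 -0.090 and Cxcr3 -0.055, and without the 3 highest barcodes Cxcl3 became -0.025. Elsewhere, Csf1r Ccl17 became 2.09 in cleared gates, Csf1r Cxcl15 -2.76 with exactly 1 gate, -2.37 in cleared gates and -4.26 without the 3 highest barcodes, and NK Cxcl5 -0.21 with exactly 1 gate.

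For KO over irradiated WT in the endothelial gate, Cxcl3 became 1.58 with exactly 1 gate, 1.16 in female-type barcodes, 1.02 after thinning, 0.62 with equal weights, 1.44 in cleared gates and 0.86 without the 3 highest barcodes. Pf4 became 0.57 with exactly 1 gate, 0.72 with raised minima, 0.23 in female-type barcodes, 0.82 in cleared gates and 0.10 without the 3 highest barcodes. Ccl22 became 0.40 in cleared gates and 0.014 without the 3 highest barcodes, and in female-type barcodes Ccl17 became 0.055 and Cxcl1 0.045. With exactly 1 gate, Csf1r Cxcl15 became 0.86, Csf1r Pf4 0.29 and NK Cxcl5 0.13. Csf1r Ccl22 became 0.090 in female-type barcodes, epithelial Ccl22 0.23 with raised minima, and epithelial Cxcl5 0.015 without the 3 highest barcodes. Fibroblast Cxcl9 became 0.19 after thinning and 0.15 without the 3 highest barcodes.

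Levels rest on 1 library per group, so differences between animals were not measured. The irradiated WT values rest on 86 barcodes in the Csf1r gate and 118 in the epithelial gate, the fewest of the 3 libraries there. The median-of-ratios scale takes off each gate's ratios the median log2 ratio of genes with at least 30 UMIs in both libraries. For irradiated WT over NoIR2 this median was 0.27 in the epithelial gate and -0.12 in the endothelial gate. It was 0.10 to 0.14 in the lymphocyte gates. For KO over irradiated WT the median was -0.12 to -0.16 in the lymphocyte gates.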
